A study of Homo sapiens with 4 samples.

Results

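The 9 genes of the protein arginine methyltransferase family, PRMT1, PRMT2, PRMT3, CARM1 (PRMT4), PRMT5, PRMT6, PRMT7, PRMT8 and PRMT9, were examined together with MAT2A, which makes their methyl donor. They were chosen by gene name, and all 10 had a row of their own among the 60675 gene rows of the deposited table. RNA came from HT1080, a human fibrosarcoma cell line from connective tissue, with a knockout of KDAC8, the lysine deacetylase encoded by HDAC8. The study holds 1 group of 4 replicate libraries, all KDAC8 knockout, and no parental library was analysed here, so levels and their spread are reported and no effect of the knockout. How the knockout was made, and whether the line is 1 clone, is not given in the sources used here. Nothing in the labels ties the replicates to separate cultures, so any p-value reflects the spread among these 4 libraries alone, which may be technical.

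Protein arginine methyltransferases move a methyl group from S-adenosylmethionine to arginine side chains of histones, RNA-binding proteins and splicing factors. Type I enzymes leave asymmetric dimethylarginine, type II enzymes symmetric dimethylarginine, and type III enzymes monomethylarginine only. MAT2A makes S-adenosylmethionine from methionine and ATP in tissues outside the liver, while its paralog MAT1A serves the adult liver. The pathway is studied in tumour cells that lack MTAP, a group to which HT1080 is known to belong, because the metabolite that MTAP clears, methylthioadenosine, inhibits PRMT5.

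Libraries held 39454210 to 45828807 counts. Levels are in CPM, counts scaled by effective library size, and each ± is the SD of the 4 libraries (n = 4). Detected means at least 1 CPM in every library. Since longer transcripts yield more reads, the order of genes is given per kilobase of exon. HDAC8, the targeted gene, had 80, 89, 95 and 107 counts in replicates 1 to 4, which cannot tell whether an edited exon was among them. Of 7 mesenchymal markers 5 were detected, beside 21.4% of all rows. Those rows include pseudogenes and noncoding genes, and 30875 of the 60675 had 0 counts in every library. Of 20407 annotated promoters of protein-coding genes, 13340 belonged to detected genes. Among these markers VIM had the most counts (4701 ± 283 CPM), and the collagen gene COL3A1 the fewest, 2 in all.

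Of the 10 members, 9 were detected, against 21.4% of all rows in the table, and PRMT8 was the exception. MAT2A and PRMT1 had the highest counts, PRMT5 and CARM1 came next, and PRMT2, PRMT3, PRMT6, PRMT7 and PRMT9 had fewer. Counting error was small, since the lowest count of a detected member, 526 for PRMT9 in replicate 4, had an exact Poisson 95% interval of 482 to 573.

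**Figure D1:**
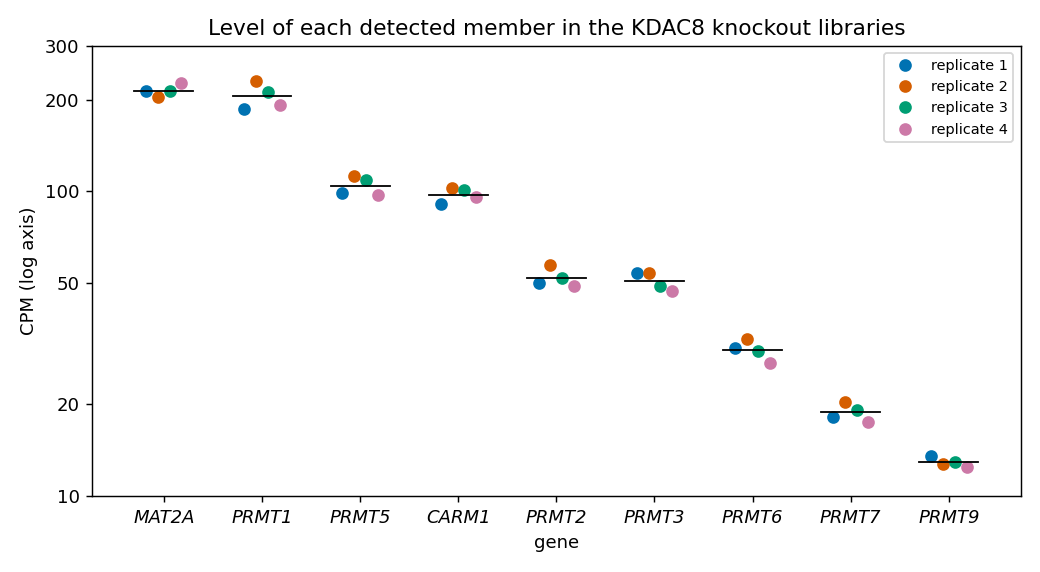
Level in CPM (log axis) of the 9 detected members in each KDAC8 knockout library, with 1 point per replicate and a bar at the mean. MAT2A and PRMT1 stand near 200 CPM and PRMT9 at 12.9 CPM. PRMT8, with 1 count in all, is not drawn.

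MAT2A (ENSG00000168906, chromosome 2, 85539165 to 85545280, GRCh38, forward strand) had 213, 203, 213 and 227 CPM in replicates 1 to 4, a mean of 214 ± 9.72 CPM. Replicate 4 was its highest library and replicate 2 its lowest. The share of counts from the mitochondrial genome had the same order over the libraries, from 1.99% in replicate 2 to 3.28% in replicate 4, and its part in this result was not tested.

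The MAT2A transcript is known for hairpins that the RNA methyltransferase METTL16 binds and methylates when S-adenosylmethionine is plentiful. METTL16 averaged 36.4 ± 1.06 CPM. Its libraries lay close together, and the chi-square test of variation did not pass (adjusted p = 0.337). Its recognition sequence was searched as TACAGAGAA or TACAGAAAA on the sense strand of the longest annotated MAT2A transcript (2819 bases, GENCODE 29). It occurred at 6 sites, all 6 of them after base 1311, the last base of the coding region. The sites are shown because they are the stretch of MAT2A RNA that the methyltransferase reads, with the recognition sequence in capitals and 10 bases on each side.
MAT2A site 1, from base 1351: tggcgtaggcTACAGAGAAgccttcaagc
MAT2A site 2, from base 2138: tgtgatgtcaTACAGAGAAgtcacagggc
MAT2A site 3, from base 2323: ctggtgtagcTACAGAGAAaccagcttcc
MAT2A site 4, from base 2438: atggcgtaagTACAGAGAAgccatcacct
MAT2A site 5, from base 2553: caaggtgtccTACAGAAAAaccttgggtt
MAT2A site 6, from base 2661: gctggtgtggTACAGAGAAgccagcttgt
Of the longest transcripts of 19669 protein-coding genes, 7.71% held the sequence at least once, and 2 genes, MAT2A among them, held it 6 times or more. A match of letters is a description and does not show that the site was used in these cells.

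PRMT1 (ENSG00000126457, chromosome 19, 49675786 to 49689029, forward strand), the main type I enzyme of most cells, had 186, 230.0, 212 and 192 CPM in replicates 1 to 4, with a mean of 205 ± 19.8 CPM. Replicates 2 and 3 were its higher libraries and replicates 1 and 4 its lower ones. It was the most variable detected member, with an SD of 0.14 in log2 CPM, and 80.3% of the genes at 10 CPM or more had a smaller SD.

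CARM1 (ENSG00000142453, chromosome 19, 10871513 to 10923070, forward strand) methylates coactivators such as EP300 and histone H3. It had 90.9, 102, 101 and 95.7 CPM, a mean of 97.4 ± 5.24 CPM. As for PRMT1, replicates 2 and 3 were higher than replicates 1 and 4.

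The other detected type I genes had fewer counts. PRMT2 (ENSG00000160310, chromosome 21, 46635167 to 46665124, forward strand), a coactivator of nuclear receptors with weak enzyme activity, had 49.96, 57.4, 51.9 and 48.8 CPM. PRMT3 (ENSG00000185238, chromosome 11, 20387530 to 20509294, forward strand), a cytosolic enzyme that methylates ribosomal protein RPS2, had 54.0, 53.9, 48.9 and 47.0 CPM. PRMT6 (ENSG00000198890, chromosome 1, 107056679 to 107067636, forward strand), a nuclear enzyme that methylates histone H3, had 30.7, 32.9, 29.8 and 27.4 CPM. Their means were 52.0 ± 3.84, 51.0 ± 3.55 and 30.2 ± 2.25 CPM. PRMT2 and PRMT6 were highest in replicate 2, PRMT3 was about as high in replicate 1 as in replicate 2, and all were lowest in replicate 4.

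PRMT5 (ENSG00000100462, chromosome 14, 22920511 to 22929585, reverse strand), the main type II enzyme, had 98.8, 113, 109 and 97.4 CPM, a mean of 104 ± 7.48 CPM. Its libraries split in the same way as those of PRMT1, with replicates 2 and 3 above replicates 1 and 4. PRMT9 (ENSG00000164169, chromosome 4, 147637785 to 147684230, reverse strand), a type II enzyme that methylates the splicing factor SF3B2, had 13.5, 12.8, 13.0 and 12.4 CPM, a mean of 12.9 ± 0.455 CPM. It was the steadiest member. PRMT7 (ENSG00000132600, chromosome 16, 68310974 to 68358563, forward strand), the type III enzyme, had 18.3, 20.4, 19.1 and 17.5 CPM, a mean of 18.8 ± 1.27 CPM, highest in replicate 2 and lowest in replicate 4.

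PRMT8 (ENSG00000111218, chromosome 12, 3381349 to 3593973, forward strand), a membrane-anchored paralog of PRMT1 expressed mainly in brain, had 1 count in replicate 1 and 0 counts in replicates 2, 3 and 4. Over the 4 libraries, 1 count has an exact Poisson 95% interval of 0.0253 to 5.57 counts. The floor of 3 counts per library puts the upper limit behind each 0 between 0.0662 and 0.0712 CPM. PRMT8 transcripts share 0 stretches of 100 bases with any other annotated gene, PRMT1 included. MAT1A had 19, 16, 18 and 18 counts, 0.418 ± 0.0393 CPM, and was not detected either, so in both paralog pairs 1 gene carried nearly all counts.

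Promoters of these paralogs are shown because a gene of each pair was detected and the other was not, and the CpG dinucleotides that separate many broadly used promoters from tissue-specific ones are in capitals. Each sequence is the 250 bases before an annotated start, 5′ to 3′ along the gene (RefSeq, GRCh38.p14).
MAT2A (chr2:85538918-85539167, forward strand): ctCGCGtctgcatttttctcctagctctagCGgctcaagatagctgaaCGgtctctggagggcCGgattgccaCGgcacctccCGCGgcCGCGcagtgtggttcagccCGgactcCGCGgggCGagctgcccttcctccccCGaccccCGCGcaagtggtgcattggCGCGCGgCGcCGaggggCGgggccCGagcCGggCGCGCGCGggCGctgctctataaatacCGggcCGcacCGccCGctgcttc
MAT1A (chr10:80289659-80289908, reverse strand): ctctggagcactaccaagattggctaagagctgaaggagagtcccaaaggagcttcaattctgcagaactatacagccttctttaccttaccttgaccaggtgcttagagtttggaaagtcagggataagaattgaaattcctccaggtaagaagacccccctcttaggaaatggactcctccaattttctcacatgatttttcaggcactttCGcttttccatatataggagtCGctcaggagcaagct
PRMT1 (chr19:49677021-49677270, forward strand): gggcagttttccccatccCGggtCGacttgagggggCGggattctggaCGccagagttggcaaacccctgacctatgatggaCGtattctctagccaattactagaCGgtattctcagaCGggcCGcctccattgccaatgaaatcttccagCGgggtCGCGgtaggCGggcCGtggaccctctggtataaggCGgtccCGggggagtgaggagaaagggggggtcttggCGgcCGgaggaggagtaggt
PRMT8 promoter 1 (chr12:3381099-3381348, forward strand): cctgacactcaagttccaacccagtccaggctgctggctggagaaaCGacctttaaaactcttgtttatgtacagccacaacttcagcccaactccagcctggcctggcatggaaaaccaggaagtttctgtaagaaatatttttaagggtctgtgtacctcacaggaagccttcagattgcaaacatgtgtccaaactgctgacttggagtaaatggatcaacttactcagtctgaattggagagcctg
PRMT8 promoter 2 (chr12:3490953-3491202, forward strand): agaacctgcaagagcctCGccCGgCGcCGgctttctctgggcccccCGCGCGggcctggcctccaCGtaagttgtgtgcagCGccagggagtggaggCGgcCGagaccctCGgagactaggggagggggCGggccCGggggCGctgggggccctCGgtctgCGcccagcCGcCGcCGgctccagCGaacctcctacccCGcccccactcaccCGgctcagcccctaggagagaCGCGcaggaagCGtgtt
In the full window of 300 bases, which adds 50 bases after the start, MAT2A held 43 CpGs, MAT1A 3 and PRMT1 22. PRMT8 has an upstream promoter with 1 CpG and a downstream one with 30. The promoters of the other detected members held between 20 and 56. Of the 13340 promoters of detected protein-coding genes, 66.5% held 20 or more CpGs, against 29.2% of the 7067 promoters of genes not detected. The median was 25 CpGs for detected genes and 8 for genes not detected, so the downstream PRMT8 promoter lies above both medians. Its letters say nothing about its use.

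**Figure D2:**
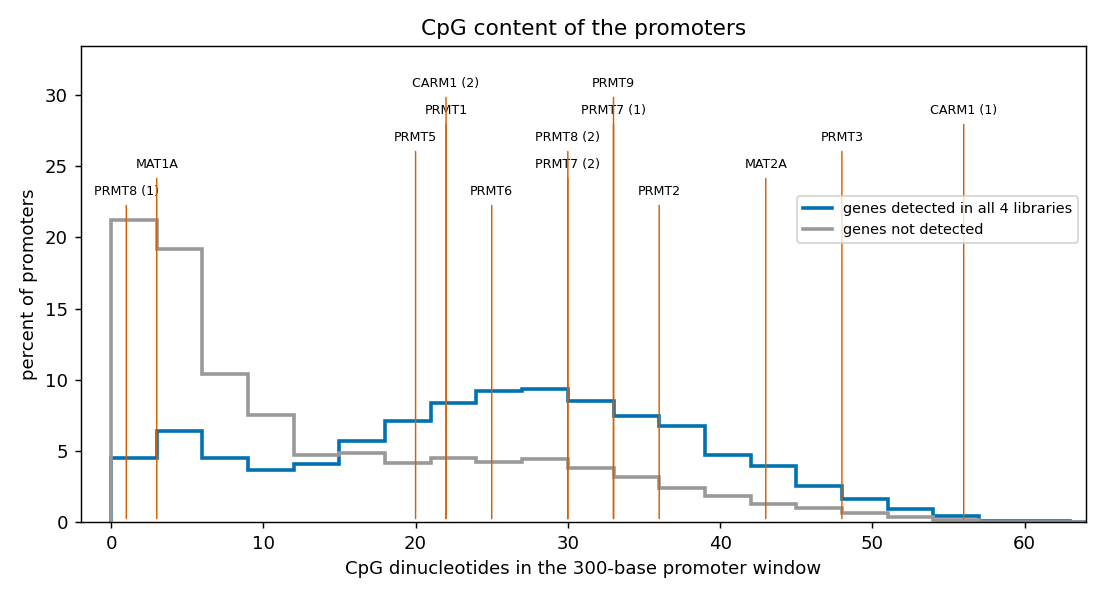
Percent of protein-coding promoters (vertical axis) by number of CpG dinucleotides in the 300-base window, for genes detected in all 4 libraries and genes not detected, in bins of 3 CpGs. Lines mark the members and MAT1A, with a number where a gene has more than 1 annotated promoter. MAT1A (3 CpGs) and the upstream PRMT8 promoter (1 CpG) lie at the low end, and all promoters of detected members at 20 or more.

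Per kilobase of annotated exon the order of the detected members was MAT2A (47.7 ± 2.17 CPM per kilobase), PRMT1 (42.8 ± 4.13), PRMT5 (30.1 ± 2.16), CARM1 (21.9 ± 1.18), PRMT3 (9.32 ± 0.65), PRMT6 (6.97 ± 0.519), PRMT2 (6.48 ± 0.478), PRMT9 (3.22 ± 0.113) and PRMT7 (1.99 ± 0.135). The median of all detected genes was 5.57 CPM per kilobase. Of the 8 neighbouring pairs in this order, 7 stood in the same order in 4 of 4 libraries. The order was taken from the means of these same libraries, so this count is a description only. The exception was MAT2A over PRMT1, with a log2 ratio of 0.16 ± 0.19 that was positive in 3 libraries and negative in replicate 2. That order did not exceed the spread. PRMT6 exceeded PRMT2 by 0.11 ± 0.06 on the log2 scale, in 4 of 4 libraries, although the ranges of their levels over the libraries overlap. The widest steps between neighbours were CARM1 over PRMT3 (2.35-fold) and PRMT2 over PRMT9 (2.01-fold), a ranking that holds for this length only.

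These ratios were tested within libraries by an exact two-sided sign-flip permutation test over 10 pairs, the 8 neighbours and 2 partner pairs. The p was 0.125 for each pair that kept its order in all 4 libraries (0.139 after Benjamini-Hochberg adjustment) and 0.25 for MAT2A and PRMT1. With 4 libraries 0.125 is the smallest p the test allows, so it cannot reach 0.05. The neighbouring pairs and their direction were also set from the same libraries, so their p is no independent support for the order. Per kilobase of the longest annotated transcript PRMT1 exceeded MAT2A by 1.60-fold (log2 ratio of MAT2A to PRMT1 -0.68). On that length PRMT2 over PRMT9 was 3.52-fold and PRMT1 over PRMT5 2.94-fold, against 1.42-fold on joined exons, both wider than CARM1 over PRMT3 (2.39-fold). PRMT2 stood above PRMT6 (log2 ratio of PRMT6 to PRMT2 -0.21) and PRMT7 above PRMT9 (log2 ratio of PRMT9 to PRMT7 -0.28). The annotated exons of PRMT1 join to 4796 bases, while its longest transcript has 1686, and the table does not show which transcripts were made.

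**Figure D3:**
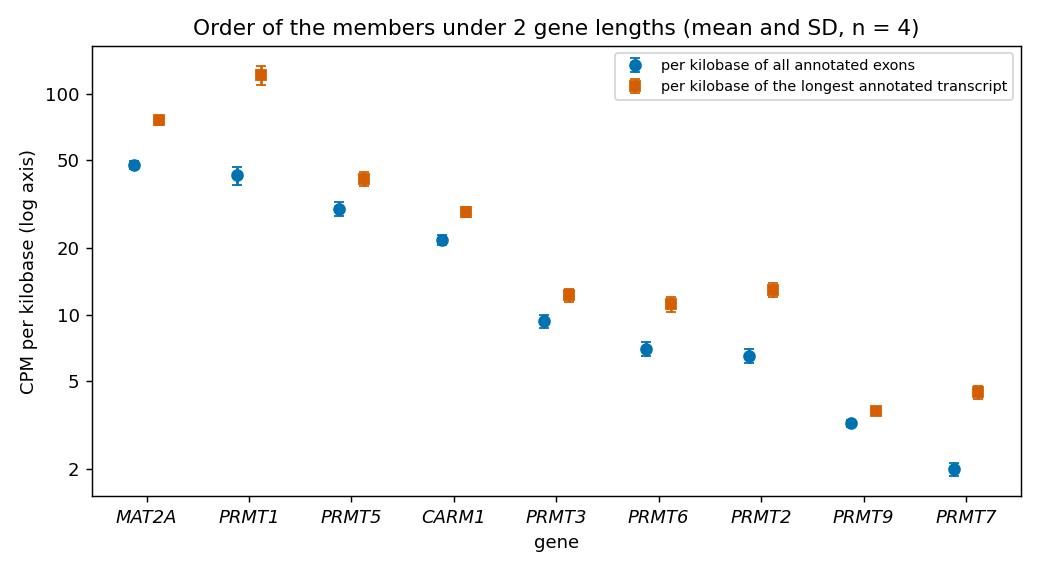
Mean CPM per kilobase (log axis) of the 9 detected members, with SD over 4 libraries as error bars, for 2 definitions of gene length. MAT2A and PRMT1 change places with the length used, from 47.7 and 42.8 to 75.99 and 122 CPM per kilobase, and so do the pairs PRMT6 and PRMT2, and PRMT9 and PRMT7.

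Grouped by the mark they leave, the 6 type I genes summed to 87.4 ± 6.24 CPM per kilobase, 71.2 ± 0.403% of the family. The type II genes PRMT5 and PRMT9 made up 27.2 ± 0.394% and PRMT7, the type III gene, 1.62 ± 0.0268%. These shares hardly moved between libraries, with type I between 70.8% and 71.7%. Per kilobase of the longest transcript the type I share was 79.1 ± 0.4%.

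Of the 9 members with enough counts to test, 8 differed between libraries by more than Poisson sampling gives (chi-square test of homogeneity, Benjamini-Hochberg adjustment over all genes tested). Among all 16790 genes tested 59.2% varied, and among those at 10 CPM or more, where counting noise is smaller, 77.7% did. PRMT9 was the member that did not pass (adjusted p = 0.629). The smallest adjusted p was that of PRMT1 (6.74e-50), followed by PRMT5 (1.09e-13) and MAT2A (3.16e-11). The largest among those that varied was that of PRMT7 (0.0234). This p depends on the number of counts as well as on spread, so its order does not rank the spread. MAT2A had an SD of 0.065 in log2 CPM, below that of PRMT7 (0.097), and 25.7% of genes at 10 CPM or more had a smaller SD than MAT2A. The PRMT7 call ended with total counts (adjusted p = 0.371), with TMM on protein-coding rows (0.0881), and without replicate 2 (0.146) or replicate 4 (0.131), and the PRMT6 call without replicate 4 (0.067). The variation was small in size. The ratio of highest to lowest library was 1.23 for PRMT1, 1.199 for PRMT6, 1.12 for MAT2A and 1.09 for PRMT9. Of the 9 members 0 reached 1.5 times, against 12.3% of all genes tested that varied by as much. The genes tested include many with fewer counts than the members, and this share was not counted at 10 CPM or more. Of the 9 members, 6 had an SD of log2 CPM above the median of genes at 10 CPM or more. The median SD of log2 CPM over the detected members was 0.10, against 0.09 for all genes at 10 CPM or more.

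The methyltransferases and MAT2A were not high in the same libraries. Of the 8 detected methyltransferase genes, 6 were highest in replicate 2 and 6 were lowest in replicate 4, while MAT2A was lowest in replicate 2 and highest in replicate 4. PRMT3 and PRMT9 were highest in replicate 1. CARM1 and PRMT1 were lowest in replicate 1. How many of all genes peak in replicate 2 or dip in replicate 4 was not counted. Protein-coding genes at 10 CPM or more were split into 5 equal groups by GC content. From low to high GC, their median log2 deviations from the gene mean in replicate 4 were -0.04, -0.03, -0.02, -0.04 and -0.05. Those in replicate 2 were 0.002, -0.003, 0.01, 0.05 and 0.09. Whether the methyltransferases differ from other genes in this respect was not tested.

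Libraries also differed by GC content over the whole transcriptome. In the 1842 protein-coding genes with the highest GC content (57.2% to 73.9%, 10 CPM or more), the median deviation from the gene mean was -0.11, 0.09, 0.06 and -0.05 log2 units in replicates 1 to 4. In the 1842 with the lowest (30.2% to 40.3%) it was 0.08, 0.00, -0.05 and -0.04. CARM1 (61.9% GC), PRMT7 (57.4%) and PRMT1 (56.8%) are rich in GC, and PRMT3 (34.8%) and PRMT9 (41.3%) are poor in it. PRMT7 was lowest in replicate 4, not in replicate 1 as CARM1 and PRMT1 were. With expectations adjusted for GC content, an alternative chosen after seeing the data, 6 of the 9 members varied, against 50.7% of all genes tested. CARM1 (adjusted p = 0.584) and PRMT7 (0.327) no longer passed. PRMT1 (adjusted p = 1.21e-11) and MAT2A (adjusted p = 4.28e-19) still did, with PRMT1 0.09 above and MAT2A 0.08 below genes of like GC content in replicate 2, in log2 units. The share of counts taken by the short RNAs RN7SL, RN7SK, RPPH1 and RMRP was 5.41%, 8.18%, 6.82% and 6.12% in replicates 1 to 4, the same order as PRMT1, and its part in the variation was not tested.

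**Figure D4:**
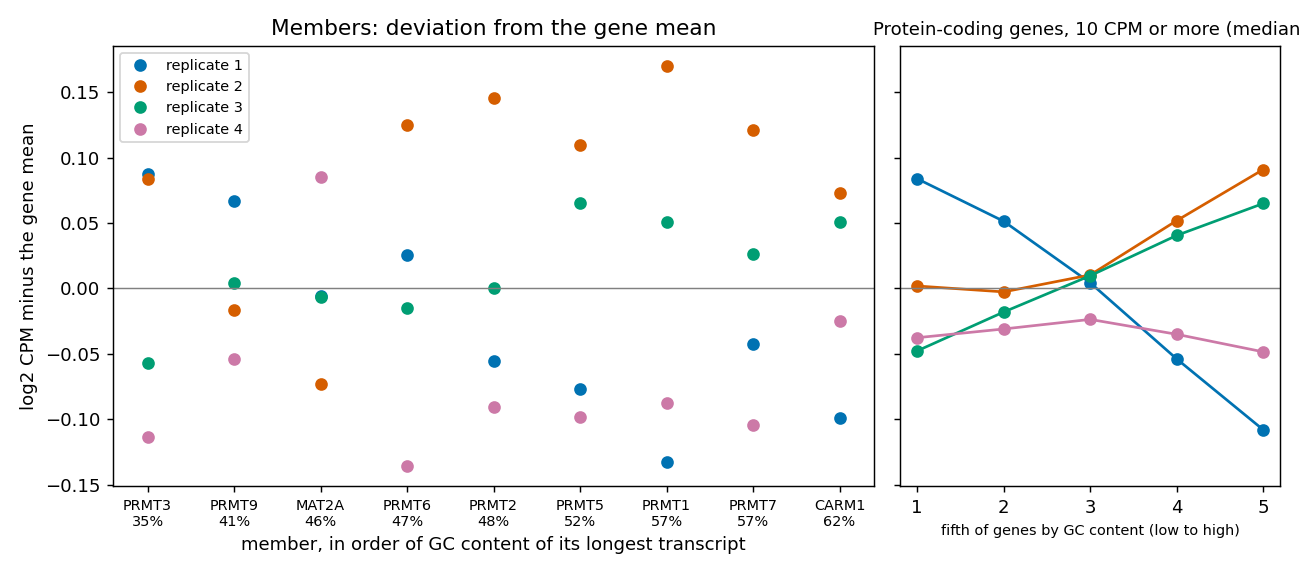
Left, log2 CPM minus the gene mean (vertical axis) in each replicate for the 9 detected members, ordered by GC content of the longest transcript. Right, the median of the same deviation in 5 equal groups of protein-coding genes at 10 CPM or more, by GC content from low to high. Replicate 2 is the highest point for 6 members and the lowest for MAT2A.

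With 4 libraries many genes follow a member closely by Pearson's r over the libraries, so likeness is given as a description with no p. Of 9479 other genes at 10 CPM or more, 292 had an r of 0.99 or more with PRMT1, 240 with PRMT5 and 69 with MAT2A. The 3 nearest were TKFC, NUBP2 and RAB11B for PRMT1, CALCOCO1, ACTR1B and APEX1 for PRMT5, and SH3RF3, EEF2K and NUP214 for MAT2A.

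The adaptors that guide PRMT5 and PRMT1 were all present. WDR77, the obligate partner of PRMT5 in the methylosome, stood at 61.9 ± 4.77 CPM. Per kilobase PRMT5 exceeded WDR77 by 0.45 ± 0.08 on the log2 scale, 1.37-fold, in 4 of 4 libraries. CLNS1A, which brings Sm proteins to PRMT5, had 28.3 CPM per kilobase, COPRS, which directs PRMT5 to histones, 17.8, and RIOK1, an alternative adaptor, 13.7. BTG1 and BTG2, which bind PRMT1, had 18.1 and 3.06 CPM per kilobase. All 6 partners were detected, beside 21.4% of all rows. Of the 6 partners 5 varied, beside 59.2% of all genes tested and 77.7% of those at 10 CPM or more. BTG2 was the exception (adjusted p = 0.0562). COPRS had the widest range of the 6, with 21.5, 31.5, 26.8 and 22.5 CPM in replicates 1 to 4, highest in replicate 2 as PRMT5 was.

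Of the 13 other genes of the methionine cycle 9 were detected, beside 21.4% of all rows. Of the 10 tested 7 varied, a share near the 59.2% of all genes tested and the 77.7% of those at 10 CPM or more. MAT2B, the regulatory subunit that binds MAT2A, had 12.1 CPM per kilobase, and MAT2A exceeded it by 1.98 ± 0.18 on the log2 scale, 3.96-fold, in 4 of 4 libraries. MAT2B had 65.4, 66.8, 61.7 and 55.4 CPM, lowest in replicate 4, where MAT2A was highest. This was not particular to MAT2B, since AHCY, AHCYL1, MTRR and NNMT of the same list were also lowest in replicate 4. METTL16, AHCYL2 and MTR were lowest in replicate 2, and SLC25A26 in replicate 1. AHCY, which removes S-adenosylhomocysteine, the product that inhibits methyltransferases, stood at 47.1 CPM per kilobase, close to MAT2A, and its relative AHCYL1 at 40.0 and AHCYL2 at 1.70. Methionine synthase MTR and its reductase MTRR, which rebuild methionine from homocysteine, had 10.4 and 10.9. BHMT, the enzyme of the betaine-dependent route, was not detected, with 0 counts throughout (an upper limit of 0.0176 CPM from 3 counts over the group). Its paralog BHMT2 was not detected either, at 0.133 ± 0.0976 CPM. NNMT, which spends S-adenosylmethionine on nicotinamide, had 26.0 CPM per kilobase, whereas GNMT, a liver enzyme that methylates glycine, had 0.0652 ± 0.024 CPM. SLC25A26, the mitochondrial carrier of S-adenosylmethionine, had 3.35 CPM per kilobase.

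In the methionine salvage and polyamine list 8 of 9 genes were detected, beside 21.4% of all rows, and MTAP was the exception. MTAP had 14.5, 15.8, 26.6 and 26.3 expected counts in replicates 1 to 4, 0.484 ± 0.141 CPM. These counts were not whole in any library, so some may be shared with other rows and their origin is uncertain. Replicates 3 and 4 had the higher values, and the chi-square test did not pass (adjusted p = 0.216). The highest genes were those of polyamine synthesis, with ODC1, which makes putrescine, at 138 CPM per kilobase. SMS and SRM, the synthases that release methylthioadenosine, had 90.6 and 70.7. Of the 9 genes tested here 8 varied, beside 59.2% of all genes tested and 77.7% of those at 10 CPM or more.

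Of 8 other genes listed as arginine-modifying enzymes 3 were detected, beside 21.4% of all rows. All 8 are protein-coding, and of 20407 promoters of protein-coding genes 13340 belonged to detected genes. The 3 detected were METTL23 (7.92 CPM per kilobase), JMJD6 (3.98) and NDUFAF7 (3.76), which methylates a mitochondrial complex I subunit. The PADI genes, of the family named for turning arginine into citrulline, were below detection, with PADI2 and PADI6 at 0 counts in all 4 libraries. Of 4 genes tested in this list 1 varied, JMJD6 (adjusted p = 0.00105), beside 59.2% of all genes tested and 77.7% of those at 10 CPM or more.

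Reported substrates and readers of methylarginine were all detected, beside 21.4% of all rows. Among PRMT5 substrates SNRPB (167 CPM per kilobase), SNRPD1 (22.1) and SNRPD3 (21.7), core proteins of the spliceosome, were highest and COIL (7.27) lowest. Among PRMT1 substrates HNRNPA1 (229), KHDRBS1 (64.8) and the nucleolar methyltransferase FBL (55.2) were highest and TP53BP1 (6.68) lowest. Among CARM1 substrates PABPC1 (368) and SMARCC1 (27.0) led and NCOA3 (4.76) was lowest, all in CPM per kilobase. RPS2, the PRMT3 substrate, had 1083 CPM per kilobase and SF3B2, the PRMT9 substrate, 29.5. Among readers SND1 (45.6), SMN1 (19.3) and SMNDC1 (8.14) led and TDRKH (0.263) was lowest. Varying members numbered 5 of 6 for PRMT5, 8 of 9 for PRMT1, 7 of 7 for CARM1, 2 of 2 for PRMT3 and PRMT9, and 5 of 6 readers. Among all genes tested 59.2% varied, and among those at 10 CPM or more 77.7% did. SMN1 and SMN2 are near-identical, and HNRNPA1 and RPS2 have many processed copies, so their counts are uncertain.

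**Figure D5:**
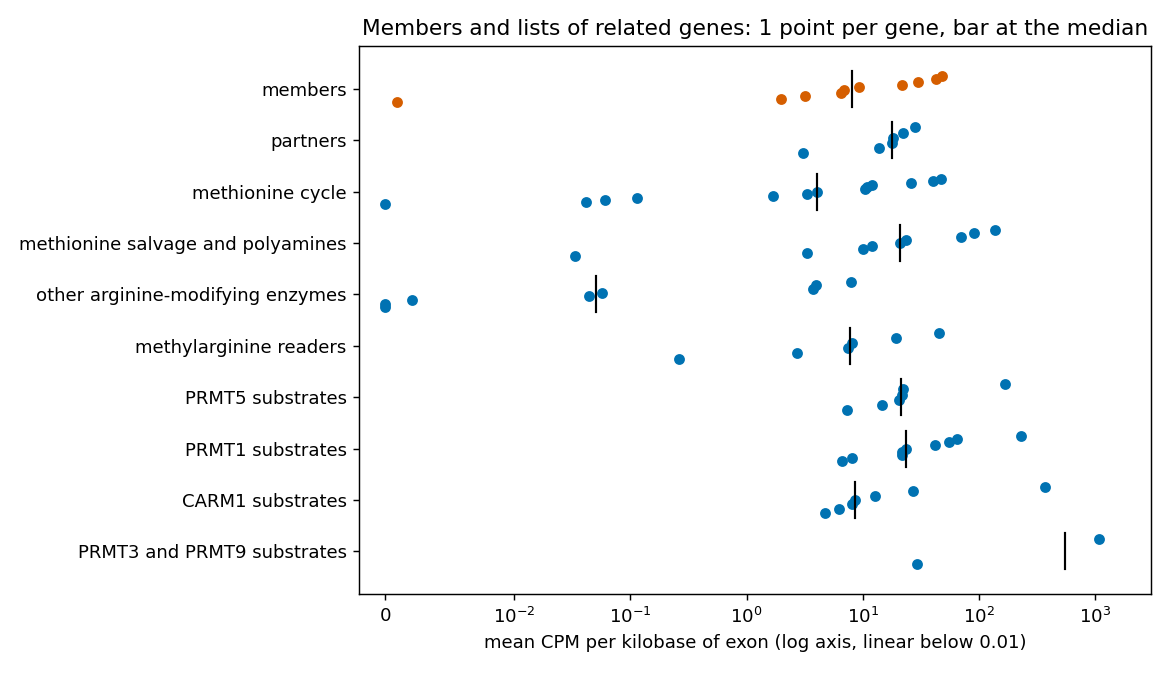
Mean CPM per kilobase of exon (horizontal axis, log scale that turns linear below 0.01) for the 10 members and 9 lists of related genes, with 1 point per gene and a bar at each list's median. The 9 detected members lie between 1.99 and 47.7 CPM per kilobase, and PRMT8, MTAP, BHMT and the PADI genes at the low end.

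Some member counts were shared with other genes. Expected counts were not whole numbers in any library for PRMT1, PRMT5, CARM1 and MAT2A, and were whole, to within 1e-09, in all 4 libraries for the other 6. Stretches of 100 bases shared with another annotated gene, on either strand, made up 4.76% of PRMT1 (with ADM5 and an antisense row), 9.61% of PRMT5 (PRMT5-AS1), 15.2% of CARM1 (YIPF2) and 10.1% of MAT2A (GGCX above all). PRMT7 shared 1.31% with SMPD3, and the other 5 members shared 0. Strand use is not stated in the sources used here, so reads in these overlaps cannot be told apart and the split is uncertain. In CPM, not divided by length, the means of the overlapping genes were 2.42 CPM for ADM5, 0.238 for PRMT5-AS1, 32.8 for YIPF2 and 35.5 for GGCX.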

How the data were processed

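RNA was measured in 4 libraries of KDAC8 knockout HT1080 cells, made from total RNA after ribosomal RNA depletion, per the labels' protocols. The submitters' processing notes name GRCh38, RSEM 1.3.3, Bowtie2 2.5.4, Trimmomatic 0.39 and DESeq2 1.46.0. What each tool did, the annotation release, strandedness and filtering: not given in the sources used here. As deposited, the table holds expected counts per Ensembl gene, 1 column per library, not scaled between libraries. The values show the unit: 10.6% to 11.9% per library are not whole, and column totals differ. Every sample column was matched by name, and 0 were left unused.

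Expected counts were rounded. TMM factors (0.963 to 1.03, edgeR 4.0.16 in R 4.3.3) gave the effective library sizes behind CPM, and the other steps ran in Python 3.11.15 with scipy 1.17.1. Genes averaging at least 10 counts were tested for variation among libraries (chi-square, 3 degrees of freedom, expectations from effective library sizes), and p-values were Benjamini-Hochberg adjusted over all of them (threshold 0.05). Single-gene logs used a pseudocount of 0.01 CPM, and ratios none. Positions, exons, GC content and transcripts came from GENCODE 29 (GRCh38), which held 94.0% of the IDs and may not be the release behind the table. Exonic length joins all annotated exons. All 90 genes of the 14 lists were matched to a row, MRE11 under an older name. Promoters and starts came from RefSeq (GRCh38.p14), with 9 of 9 methyltransferases and MAT2A matched. Alternatives were DESeq2 1.42.0 size factors, total counts, TMM on protein-coding rows, no count minimum, unrounded counts, 0.5 CPM for detection, a pseudocount of 0.1 CPM, other gene lengths, each library left out, and expectations adjusted for GC content in 20 bins. The chi-square test was tested on simulated data. Poisson intervals and floors (3 counts) cover counting error only, as PCR copies are not independent molecules.

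Genes named were all members, all partners and methionine cycle genes, the 3 highest per kilobase and the lowest of each other list, the highest, lowest and zero-count markers, member-named pseudogene and antisense rows, and the 3 genes most like MAT2A, PRMT1 and PRMT5. Some genes that this rule names are not reported here. Genes that overlap a member were added after the values were seen. The members and lists were chosen with earlier results of these data known.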

Additional observations from a re-analysis of the deposited data

Results flagged for a closer look

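Of 86 sets of 4 values examined (members, list genes and pair ratios), 2 had a library that stood apart from the rest, where chance flags about 1 in 20. PRMT8 and PADI4 each had 1 count in replicate 1 and 0 counts in the other libraries, so the gap took up the whole range (ratio 1). A single count is within counting error of 0.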

How the results depend on the processing

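The number of members detected stayed at 9 under every scaling, at 0.5 CPM and without each library. The number that varied was 8, also with DESeq2 size factors, with no count minimum and with unrounded counts. It was 7 with total counts or TMM on protein-coding rows, 6 to 8 with a library left out, and 6 after the adjustment for GC content. PRMT7 lost its call with total counts (adjusted p = 0.371), with TMM on protein-coding rows (0.0881), without replicate 2 (0.146), without replicate 4 (0.131) and with GC content (0.327). PRMT6 lost its call without replicate 4 (0.067), and CARM1 with GC content (0.584). The cause was not tested. The other members tested kept their side of the threshold under all 10 alternatives. All 70 alternative mean levels stayed within 1 SD of the reported one, which says little. Leaving out 1 of 4 libraries moves a mean by less than 1 SD by arithmetic, and the scalings shared a common overall size. Of 60 pair ratios under alternatives 5 turned: with the longest transcript MAT2A to PRMT1 was -0.68, PRMT6 to PRMT2 -0.21 and PRMT9 to PRMT7 -0.28 (log2), and in plain CPM the last 2 were -0.78 and -0.54, which follows from the lengths. PRMT5 over WDR77 and MAT2A over MAT2B kept their direction throughout. A ratio with the same direction in 4 of 4 libraries cannot turn when a library is left out. Only the longest transcript and plain CPM could turn such a ratio. The same 3 nearest genes were found with a pseudocount of 0.1 CPM. No paired analysis was possible because the labels give 1 group. Depth limits statements on PRMT8, MAT1A and MTAP, and possible sharing of counts also limits those on MTAP. The lack of a parental library limits all others to levels.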

Other observations

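Markers of other tissues were mostly at or near 0. Of all rows 21.4% were detected, and of 20407 promoters of protein-coding genes 13340 belonged to detected genes. Of 6 neural markers 2 were detected, SNAP25 (5.45 ± 0.563 CPM, the highest) and SYT1, and STMN2 had 0 counts in all 4 libraries. Of 5 liver markers 1 was detected, CPS1 (34.8 ± 1.93 CPM), and ALB had 1 count in all. EPCAM, CDH1 and KRT5 had 0 counts in all 4 libraries. The haematopoietic markers PTPRC and CD3E had 0 to 2 counts in any library, and neither was detected. Among pseudogene and antisense rows named for a member, PRMT5P1 and CARM1P1 had 0 counts, PRMT1P1 had 5, 13, 10 and 13 counts, and PRMT5-AS1 had 5.61, 6.46, 15.8 and 13.2 expected counts in replicates 1 to 4.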
